A study of Mus musculus with 143 samples.

Results

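The telomerase and shelterin genes were followed as 10 named genes among the 55740 gene IDs of the series, in single mouse oocytes that lack one or both ribonucleases of the nuclear RNA exosome. The 10 were the telomerase reverse transcriptase Tert, the telomerase RNA Terc, the telomerase RNA proteins Dkc1 and Wrap53, the ribonuclease gene Parn, and the shelterin genes Terf1, Terf2, Pot1a, Tinf2 and Acd. They were selected on the log2 fold change of Tert, which had been seen to be lower in adult Dis3 knockout oocytes by sequencing after removal of ribosomal RNA (RiboMinus). Because that contrast chose the genes, its values are given as a description, without tests. All 10 were present in both sets of count files.

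Telomerase lengthens chromosome ends by copying a template in its RNA subunit, and shelterin is the protein complex that covers telomeric repeats. Telomerase RNA is transcribed by RNA polymerase II as a precursor with a longer 3′ end. That end can be adenylated, and is then either trimmed to the mature end, with PARN among the trimming enzymes, or degraded, with the RNA exosome among the degrading ones. Mature Terc ends without a poly(A) tail and is held by the H/ACA proteins, of which dyskerin, the product of Dkc1, is one. Oocytes do not divide mitotically, and the grown oocyte carries maternal RNA that is kept, adenylated or degraded with little transcription as it matures.

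Poly(A) libraries were made from single oocytes at 3 stages: oocytes of the GV (germinal vesicle) stage, oocytes labelled GV3h, kept for 3 h in culture, and MII (metaphase II) eggs from the oviducts of superovulated mice. Each stage had 8 control libraries and 15, 16 and 16 libraries labelled Dis3 cKO at GV, GV3h and MII. RiboMinus libraries, 8 per group, came from adult GV oocytes (control and Dis3 cKO) and from oocytes labelled p20 (postnatal day 20), from controls, Exosc10 cKO, Dis3 cKO and dcKO (in which both targeted genes were low). CUT&Tag, which cuts and tags chromatin at an antibody's target, gave 3 peak lists per group. DIS3 and EXOSC10 are the catalytic subunits of the nuclear exosome. Per the labels the mutant mice were constructed by CRISPR/Cas9. The driver of the conditional deletion, the strain, the age in days of the adults and the animal of each oocyte are not given in the sources used here, so p-values measure the spread between these oocytes, which may come from few animals. The 71 poly(A) libraries held between 4843964 and 15412200 gene counts each (median 9510351). The 48 RiboMinus libraries were deeper, between 8492102 and 35429028 (median 18164035).

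Dis3 checked the labels in every Dis3 cKO group. Its mean level, in counts per 1000000 scaled by the TMM method (CPM), was 13.1, 13.3 and 9.70 in control GV, GV3h and MII oocytes and 2.88, 2.22 and 0.760 in Dis3 cKO oocytes. In RiboMinus libraries Dis3 stood at 15.9 in adult controls and 1.79 in adult Dis3 cKO, and at 13.6 in p20 controls, 2.02 in p20 Dis3 cKO and 2.83 in dcKO. These control groups were not uniform. The mean was 21.3 in adult controls whose titles carry AM1758 and 10.5 in those with AM1759. At p20 it was 17.7 in controls whose titles begin with 1 and 9.48 in those with 2. Every RiboMinus control still lay above every Dis3 cKO and dcKO library of its age. Exosc10 stood at 117 CPM in p20 controls, 3.13 in Exosc10 cKO and 7.26 in dcKO. All 10 oocyte markers were counted in every group. Of 22 markers of other ovarian cells and of blood, Pecam1, Nr5a2, Cyp19a1 and Kitl had median levels of 60, 38.1, 23.2 and 12.2 CPM in poly(A) libraries and 71.3, 89.9, 21.8 and 24.0 CPM in RiboMinus libraries. The other 18 had medians of at most 1.58 CPM (Inha) in poly(A) and 1.59 CPM (Fshr) in RiboMinus libraries, with single libraries up to 146 CPM (Hsd3b1, poly(A)). Col1a1, Col3a1, Cyp17a1, Cdh5, Ptprc, Hbb-bt and Hba-a1 had medians of 0 in both.

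Sequences from RefSeq (GRCm38.p6, the same assembly as mm10) are shown for the promoters of Tert and Dkc1, the members of the telomerase enzyme that were lower in Dis3 cKO oocytes at all 3 poly(A) stages. Each is the 120 bases before the annotated start on the gene's strand, with the GC box (GGGCGG or CCGCCC) in capitals. The Tert stretch is chr13:73626791-73626910, plus strand, upstream of the first exon. The Dkc1 stretch is chrX:75095734-75095853, plus strand.
Tert: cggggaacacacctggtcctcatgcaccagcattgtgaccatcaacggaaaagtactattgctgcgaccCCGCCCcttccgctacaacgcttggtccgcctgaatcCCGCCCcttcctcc
Dkc1: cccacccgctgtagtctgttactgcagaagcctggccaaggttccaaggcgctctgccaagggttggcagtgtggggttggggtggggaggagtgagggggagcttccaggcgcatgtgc
The Tert stretch held 2 GC boxes and 60% G or C. The Dkc1 stretch held 0 GC boxes and 64.2% G or C. In windows from 250 bases before to 50 after the start, a GC box was found in Tert, Parn, Terf2 and Pot1a among the 8 members with an entry, and in 35.7% of 32851 promoters. The E-box CACGTG was in the window of Wrap53 (7.15% of promoters), the cyclic AMP element TGACGTCA in those of Pot1a and Tinf2 (1.79%), and CCAAT or ATTGG in those of Dkc1, Wrap53, Terf2 and Acd (37.4%). Both strands were searched. A match is a description of the sequence only.

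Terc, the RNA subunit of telomerase (ENSMUSG00000064796, a gene of 397 bases on chr3:96414437-96414833), was almost absent from control poly(A) libraries and counted in nearly all Dis3 cKO libraries. Over the 24 control libraries it received 1 count, in GV control replicate 7. Over the 47 Dis3 cKO libraries it received 348 counts, with at least 1 count in 43 of them. No other gene overlaps Terc in the RefSeq annotation.

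At GV the 15 Dis3 cKO oocytes held 0 to 27 Terc counts each, 92 in all. At GV3h all 16 Dis3 cKO oocytes held Terc, from 2 to 37 counts, 215 in all, and all 8 controls held 0. At MII the 16 Dis3 cKO eggs held 0 to 9 counts, 41 in all, and the controls again 0. The genotypes therefore did not overlap at GV3h, and they overlapped at GV and MII, where 1 GV oocyte and 3 MII eggs of the knockout had no count and 1 GV control had 1. On counts pooled per group, over pooled TMM-scaled library sizes, the level was 0.696 CPM in Dis3 cKO GV oocytes and 0.0151 in controls. The ratio was 46.1 (95% exact interval 8.08 to 1841, for counting error alone). Against a floor of 3 counts over the control group, Terc was at least 28.9-fold higher at GV3h (1.17 CPM, floor 0.0406) and at least 7.05-fold higher at MII (0.287 CPM, floor 0.0406). The GV ratio rests on 1 control count and the other folds on a floor, so they give no order of the stages.

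Genes were tested with edgeR's quasi-likelihood test across all genes, with Benjamini-Hochberg adjustment. Terc passed its filter on low counts only through the Dis3 cKO libraries, so it had to differ to be tested, and no p of that fit is given for it. A 2-sided exact permutation test on log2(CPM + 1), which needs no filter, gave p = 0.00652 at GV (15 against 8), 1.4e-06 at GV3h (16 against 8, the smallest value possible) and 0.00180 at MII. With counts taken per spike-in (ERCC) count, the exact p was 0.0383, 0.000129 and 0.00768. With controls at 1, 0 and 0 counts, the change in the Dis3 effect on Terc between stages was not tested.

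**Figure D1:**
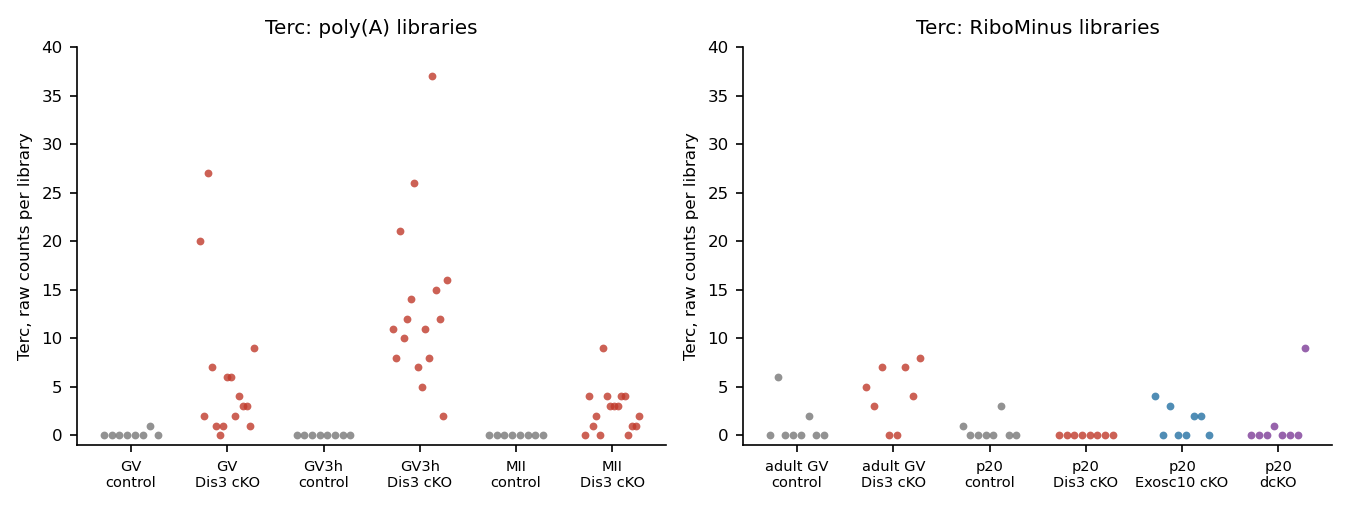
Raw Terc counts in each library (points) by group, poly(A) libraries and RiboMinus libraries. In poly(A) data the 24 control libraries hold 1 count in all and the Dis3 cKO libraries reach 37, while RiboMinus libraries of every group stay at 9 counts or fewer.

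How unusual this pattern was among genes was then counted, by a rule taken from the Terc values themselves. Of all gene IDs, 26199 had at most 1 count over the 24 control libraries, and 10306 of those had a count in Dis3 cKO. Only 12 of them, Terc included, were counted in 43 or more of the 47 Dis3 cKO libraries. RefSeq types 1 of the 12 as telomerase RNA, 1 as a long noncoding RNA and 2 as pseudogenes, and has no type for the other 8.

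The genes near Terc were then examined in the count files. The pseudogene Pafah1b1-ps1 lies 4972 bases away at lower coordinates, and its counts were also higher in the knockout: 5, 2 and 10 in control GV, GV3h and MII libraries, and 600, 998 and 347 in Dis3 cKO libraries. It also stood at 26 counts in adult RiboMinus controls and 245 in adult Dis3 cKO. At p20 it had 40 counts in controls, 37 in Dis3 cKO, 26 in Exosc10 cKO and 15 in dcKO. Farther on that side Gm26654 (11484 bases away) had 1 count over all poly(A) libraries together, and Gm24136 on the other side (7899 bases away) had 0; in RiboMinus libraries Gm24136 had 5 counts, all in adult Dis3 cKO. These neighbours were chosen after their values were seen, and the part of transcription from outside Terc in its counts was not tested.

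In RiboMinus libraries, which are primed with random hexamers and not selected for a poly(A) tail, Terc was rare in every group. Adult control oocytes held 0 counts in 6 of 8 libraries and 2 and 6 in the others, 0.0388 CPM on pooled counts (exact Poisson interval 0.0168 to 0.0765). Adult Dis3 cKO oocytes held 0 in 2 libraries and 3 to 8 in 6, 0.155 CPM (0.107 to 0.216); the libraries of both groups overlapped, and this contrast is not tested. At p20 the group totals were 4 counts in controls, 0 in Dis3 cKO (exact Poisson interval up to 0.0377 CPM; a floor of 3 counts is 0.0306), 11 in Exosc10 cKO and 10 in dcKO, of which 9 came from 1 library. None of the 7 tested RiboMinus comparisons reached the threshold by 2-sided exact permutation (8 against 8): the smallest p was 0.0769, for Exosc10 cKO against Dis3 cKO, and the adjusted p ranged from 0.538 to 0.981. Without the filter on low counts edgeR called Terc higher in dcKO than in Dis3 cKO (log2 difference 3.83, adjusted p 0.0262), a call that includes the library with 9 counts. By the permutation test a difference in total Terc between genotypes was not detectable at p20 at this depth.

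Tert, the catalytic subunit (ENSMUSG00000021611, chr13:73626911-73649843), was lower in Dis3 cKO oocytes at every poly(A) stage. At GV the 8 controls ranged from 37.2 to 50.7 CPM (median 46.2), and the 15 Dis3 cKO oocytes from 4.85 to 37.8 (median 10.7). All but 1 knockout oocyte lay below every control. The exception, replicate 8 at 37.8 CPM, also had the highest Dis3 level of its group (5.85 CPM). The log2 fold change was -1.78 (SE 0.30, edgeR adjusted p 2.9e-06, n = 15 and 8), and -1.99 without that oocyte (adjusted p 1.1e-07).

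At GV3h Tert stood at 55.6 ± 5.88 CPM in controls (SD, n = 8; 45.4 to 63.6) and 12.5 ± 2.55 in Dis3 cKO (n = 16; 7.86 to 16.2). At MII it stood at 35.1 ± 8.71 CPM in controls (20.4 to 47.7) and 6.73 ± 4.94 in Dis3 cKO (0 to 17.4). At both stages every knockout oocyte was below every control. On the log2 scale the knockout was lower, at -2.15 for GV3h (SE 0.29, edgeR adjusted p 1.1e-08) and -2.37 for MII (SE 0.30, 7.2e-10). MII replicate 15 of the knockout had no Tert count and stood apart as a library, with 14.4 gene counts per ERCC spike-in count (48.6 to 81.0 in the rest of its group) and a summed level of oocyte markers of 12205 CPM (18354 to 28825). Without it the Tert difference was -2.28 (adjusted p 6.3e-11), and Dkc1, Terf1 and Acd kept their calls at MII. Over all alternatives run the GV value stayed between -2.07 and -1.36 and its adjusted p at or below 0.000169.

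**Figure D2:**
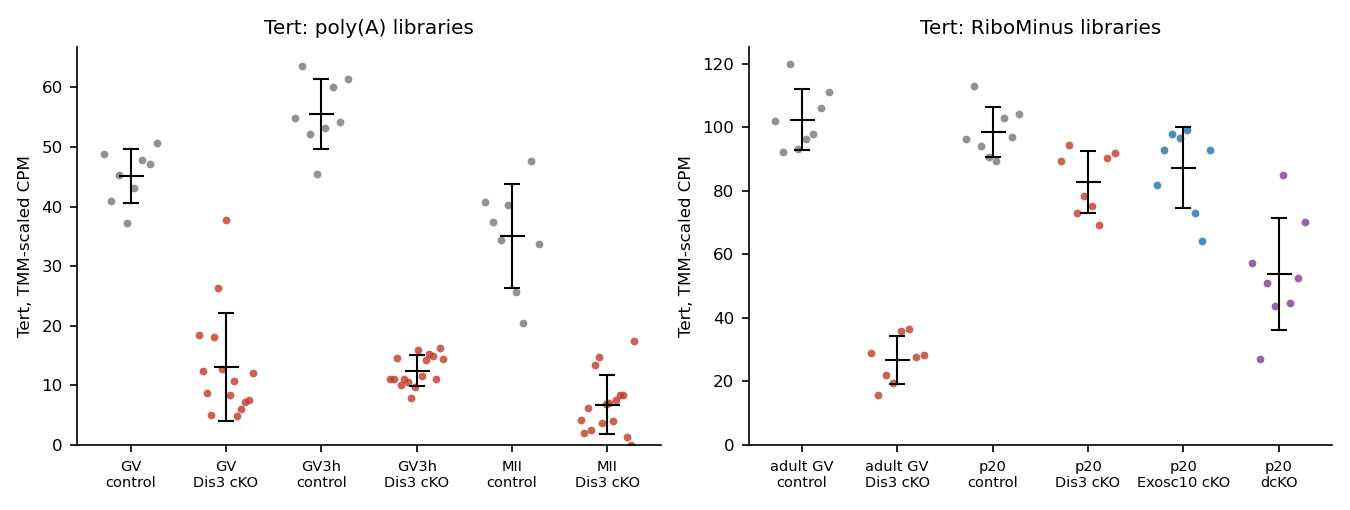
Tert levels in TMM-scaled CPM per library (points) with group mean and SD (bars), poly(A) libraries and RiboMinus libraries. Dis3 cKO oocytes lie below the controls at GV3h and MII and, with 1 exception at 37.8 CPM, at GV, and at p20 the dcKO libraries (27 to 85.1) lie below the controls (89.5 to 113).

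The size of the Tert difference did not change by a called amount between stages: the Dis3 effect at GV3h minus that at GV was -0.37 (edgeR adjusted p 0.776) and at MII minus GV -0.59 (0.403). In controls Tert did not pass the test from GV to GV3h (0.30, adjusted p 0.741) or from GV to MII (-0.37, 0.379), but the first was called in a fit of only the groups compared (0.31, adjusted p 0.0241) and the second with ERCC scaling (-2.22, 4.4e-06). In Dis3 cKO oocytes it fell by 0.95 from GV to MII (adjusted p 0.00111).

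The adult RiboMinus contrast that led to the choice of these genes is given for reference. Tert ranged from 92.1 to 120 CPM in 8 controls (median 99.9) and from 15.6 to 36.6 in 8 Dis3 cKO oocytes (median 28.0), with no overlap and a log2 fold change of -1.91 (SE 0.14). Within the knockout the 4 libraries whose titles carry AM1713 had a mean of 21.5 and the 4 with AM1757 a mean of 32.1, both far below the controls. In this contrast 28.1% of all genes tested were called, from which nothing is read for the members.

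At p20 Tert levels went in the order control, Exosc10 cKO, Dis3 cKO and dcKO. Controls ranged from 89.5 to 113 CPM (median 96.6), Exosc10 cKO from 64.3 to 99.2 (median 92.7), Dis3 cKO from 69.3 to 94.4 (median 83.8) and dcKO from 27 to 85.1 (median 51.7). The first 3 overlapped their neighbours in that order and neither single knockout passed the test against control (Dis3 cKO -0.25, edgeR adjusted p 0.319; Exosc10 cKO -0.18, 0.500). In dcKO oocytes Tert fell by 0.86 (SE 0.14, adjusted p 3.4e-06), and no dcKO library reached the lowest control. It was also lower in dcKO than in Dis3 cKO (-0.61, adjusted p 0.000396) and than in Exosc10 cKO (-0.68, 0.000116). These p20 comparisons share their control or dcKO libraries and are not independent.

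The dcKO value differed between the libraries whose titles begin with 1 (mean 44.7 CPM) and with 2 (63.2), and it was -0.65 without the first 4 and -1.16 without the others. Both kept the call (largest adjusted p over all alternatives 0.00420). Scaled to ERCC counts the difference from control was -0.87 (adjusted p 0.00360), but that from Dis3 cKO was -0.31 (0.314). The adult Dis3 difference (-1.91) and the p20 one (-0.25) stand side by side here; the change between ages was not tested, because the adult contrast chose the gene. Between adult and p20 controls the log2 fold change of Tert was 0.06 on TMM scaling and -1.65 with ERCC scaling, where the median of all genes was -1.69. No test is given for Tert here, because those adult controls served the contrast that chose the gene.

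Dkc1, which encodes the pseudouridine synthase dyskerin that binds and stabilises H/ACA RNAs including Terc (chrX:75095854-75109776, overlapping Gm25520 and Mpp1), was lower beside Tert at all 3 poly(A) stages, by less. At GV controls ranged from 150 to 240 CPM (median 203) and Dis3 cKO oocytes from 59.1 to 200 (median 120), with 12 of 15 below every control (log2 -0.70, SE 0.15, edgeR adjusted p 0.000178). At GV3h the means were 181 ± 22.3 and 105 ± 21.9 CPM (SD, n = 8 and 16; log2 -0.78, SE 0.14, adjusted p 1.0e-05) and the groups did not overlap. At MII they were 494 ± 45.2 and 245 ± 67.9 CPM (log2 -1.01, SE 0.14, adjusted p 2.6e-08), again without overlap. The overlapping gene Mpp1 did not fall at any of these stages (0.08, 0.27 and 0.74 on the log2 scale).

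Dkc1 also rose in maturation, unlike Tert: from GV to MII by 1.30 on the log2 scale in controls (SE 0.17, edgeR adjusted p 9.7e-10) and by 0.99 in Dis3 cKO (1.3e-10). Scaled to ERCC counts the value in controls was -0.55 (SE 0.27, adjusted p 0.0505), where the median of all genes was -2.12. In Dis3 cKO the ERCC-scaled value was -0.28 (SE 0.19, edgeR adjusted p 0.161), where that median was -1.50. In adult RiboMinus libraries Dkc1 stood at 97.7 ± 15.9 CPM in controls and 65.2 ± 20.5 in Dis3 cKO (log2 -0.57, SE 0.17, not tested).

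At p20 Dkc1 was lower in dcKO. Controls ranged from 90.2 to 127 CPM (median 108), Dis3 cKO from 70.0 to 155 (113), Exosc10 cKO from 66.2 to 152 (77.8) and dcKO from 26.8 to 106 (51.6). The dcKO difference from control was -0.98 (SE 0.22, edgeR adjusted p 0.000277), and that from Dis3 cKO -1.13 (5.9e-05). The 4 dcKO libraries titled 1 had a mean of 34.5 CPM and the 4 titled 2 a mean of 73.8; without the first 4 the difference from control was -0.55 (adjusted p 0.0361). The difference from Exosc10 cKO (-0.69, adjusted p 0.00831) became -0.27 (0.340) without them and -0.46 (0.152) without the Exosc10 cKO libraries titled 2. Its call was also lost with counts summed per title tag (-0.70, edgeR adjusted p 0.114) and with ERCC scaling (-0.58, 0.0841), with a similar value. Dis3 cKO (0.15, adjusted p 0.768) and Exosc10 cKO (-0.29, 0.478) did not pass the test against control.

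Parn, which encodes a poly(A)-specific ribonuclease that trims the adenylated 3′ end of Terc (chr16:13537964-13668198, overlapping Gm33329), did not pass the test in Dis3 cKO oocytes at any poly(A) stage or at p20 with TMM scaling. Its means were 55.4 and 56.3 CPM in control and Dis3 cKO at GV, 56.4 and 51.4 at GV3h, and 38.6 and 41.4 at MII, with overlapping libraries at each stage. The edgeR adjusted p was 0.922, 0.397 and 0.520, and at MII the log2 fold change went from 0.10 to 0.52 with ERCC scaling (adjusted p 0.0448). In the adult RiboMinus contrast, which is not tested, its log2 fold change was 0.32 (SE 0.10), and -0.22 (SE 0.18) with ERCC scaling. At p20 Parn was lower in dcKO than in control by 0.27 (SE 0.11, adjusted p 0.0354), a call lost under most alternatives (adjusted p up to 0.234). It was also lower than in Dis3 cKO (-0.39, edgeR adjusted p 0.00293), a call lost with ERCC scaling (-0.12, 0.586) and with counts summed per title tag (-0.41, 0.0543). Against Exosc10 cKO the difference was -0.48 (edgeR adjusted p 0.000431), and -0.51 (0.0151) with ERCC scaling.

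Wrap53, whose product TCAB1 carries telomerase to Cajal bodies (chr11:69561754-69580250, overlapping Rps27-ps2), was near the limit of detection, from 0 to 5.56 CPM in single poly(A) libraries. None of its Dis3 contrasts passed the test in poly(A) data (log2 -1.51 at GV, 1.78 at GV3h and 0.40 at MII; edgeR adjusted p 0.169, 0.102 and 0.764), with the GV3h difference called in a fit of only the groups compared (1.76, 0.0492). It fell from GV to MII in controls (1.97 ± 1.86 to 0.128 ± 0.362 CPM, SD, n = 8; log2 -3.78, SE 1.06, adjusted p 0.00169). At p20 the 8 dcKO libraries (1.86 to 4.43 CPM) all lay above the 8 Dis3 cKO libraries (0 to 1.26), a log2 difference of 1.97 (SE 0.60, edgeR adjusted p 0.00653). Without the Dis3 cKO libraries titled 2 it was 1.83 (adjusted p 0.0501). Against control the difference was 1.18 (adjusted p 0.0823; 0.0465 by DESeq2 and 0.00958 in a fit of only the groups compared). Trp53, the gene of the p53 tumour suppressor next to Wrap53, rose in Dis3 cKO at MII (0.62, SE 0.13, adjusted p 9.7e-05) and in dcKO at p20 (0.46, SE 0.14, 0.00597). The RefSeq spans of Wrap53 and Trp53 lie 98 bases apart on opposite strands, and the use of strand in the counting is not stated, so reads where they meet cannot be assigned with certainty.

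Of the 5 shelterin members, Terf1 and Acd passed the edgeR test between Dis3 cKO and control oocytes of the poly(A) set, both at MII alone, and Terf2, Pot1a and Tinf2 at no stage; alternatives that called others are given with each gene. The shelterin genes Terf2ip and Pot1b are not members and are described with the wider pathway. Terf1 (chr1:15805546-15844052), encoding a protein that binds double-stranded telomeric repeats, stood at 112 and 97.3 CPM in control and Dis3 cKO at GV, 106 and 91.9 at GV3h, and 74.7 and 59.8 at MII. It passed the test at MII alone (log2 -0.32, SE 0.09, edgeR adjusted p 0.00417), a value that turned to 0.07 with ERCC scaling and a call lost with title numbers 1 to 8 alone (-0.21, adjusted p 0.132). It was also called at GV with ERCC scaling (-0.48, edgeR adjusted p 0.0458) and at GV3h in a fit of only the groups compared (-0.22, 0.0164). Terf2 (chr8:107069400-107096548), whose product also binds duplex repeats, did not pass the test at GV (0.21, adjusted p 0.316), GV3h (-0.12, 0.533) or MII (-0.27, 0.109).

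Pot1a (chr6:25743940-25809277), the gene of a protein that binds the single-stranded overhang, came closest at GV: 27.4 ± 4.85 CPM in controls and 35.3 ± 6.83 in Dis3 cKO (log2 0.37, SE 0.14, edgeR adjusted p 0.0528; 0.0368 by DESeq2). A fit of only the groups compared (0.36, edgeR adjusted p 0.0383) and one without Dis3 cKO replicate 8 (0.41, 0.0275) also called it at GV. With ERCC scaling the GV value was 0.07 (edgeR adjusted p 0.825). Pot1a did not pass at GV3h (-0.16, 0.389) or MII (0.16, 0.374), where ERCC scaling gave 0.46 (edgeR adjusted p 0.0456). Tinf2 (chr14:55676208-55682159), encoding TIN2, the bridge between the duplex-binding proteins and the rest of shelterin, stood at 171 and 160 CPM at GV, 204 and 196 at GV3h and 267 and 285 at MII, and passed in none (adjusted p 0.632, 0.748 and 0.550).

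Acd (chr8:105698155-105701228), encoding TPP1, which recruits telomerase, was the member called by edgeR for a change in the Dis3 effect between stages. It stood at 131 ± 16.1 and 113 ± 13.2 CPM in control and Dis3 cKO at GV, and at 71.1 ± 17.8 and 86.1 ± 12.9 at MII (SD, n = 8, 15, 8 and 16). The log2 differences were -0.22 (edgeR adjusted p 0.110; 0.0420 in a fit of only the groups compared) and 0.28 (0.0224; up to 0.183 under alternatives), and their difference was 0.50 (SE 0.14, adjusted p 0.0122; at most 0.0434 under alternatives). Other members were called for this change by an alternative alone: Terf2 by DESeq2 (-0.52, adjusted p 0.0490; -0.47, 0.0955 by edgeR), and Tinf2 (0.82, edgeR adjusted p 0.0336) and Parn (0.76, 0.0469) with ERCC scaling. Acd overlaps Carmil2 and Pard6a, and Pard6a rose at MII (0.81, SE 0.26, adjusted p 0.00871); the part of shared reads was not tested.

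**Figure D3:**
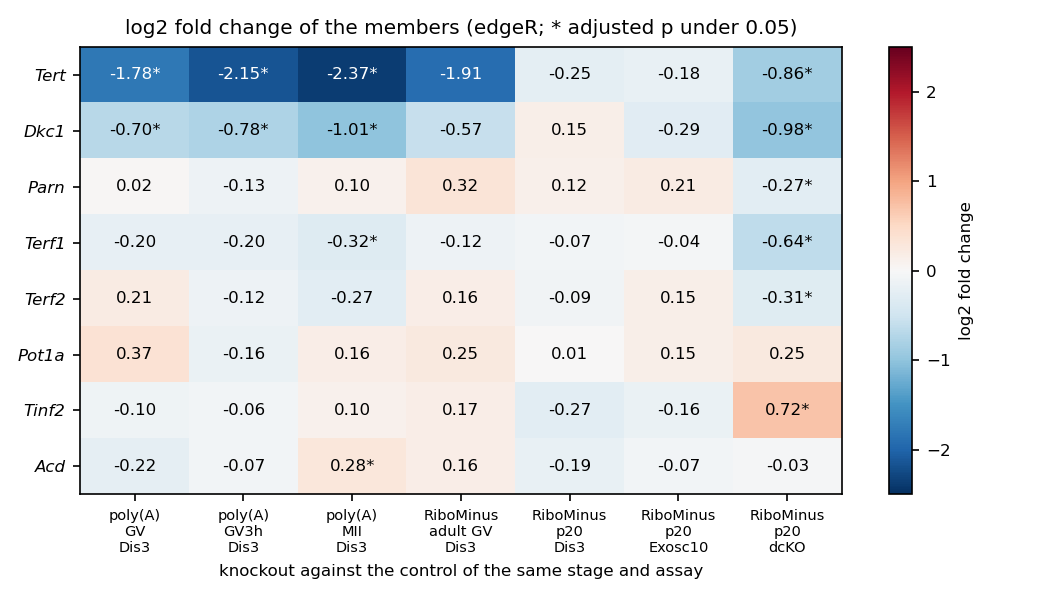
Heat map of log2 fold changes of 8 members (rows) in each knockout against the control of its stage and assay (columns), with asterisks for an edgeR adjusted p under 0.05 and no test in the adult RiboMinus column. Tert and Dkc1 are negative in all Dis3 cKO columns of the poly(A) set, from -0.70 to -2.37, and Tinf2 is positive at 0.72 in the p20 dcKO column.

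At p20 the shelterin genes did not pass the test in either single knockout and moved in both directions in dcKO. Terf1 ranged from 85.7 to 117 CPM in controls and from 51.0 to 88.2 in dcKO (log2 -0.64, SE 0.10, edgeR adjusted p 3.1e-06). Terf2 ranged from 45.6 to 63.1 and from 40 to 45.8 CPM (-0.31, SE 0.09, adjusted p 0.00472). That call was lost with ERCC scaling (-0.35, edgeR adjusted p 0.105), with counts summed per title tag (-0.34, 0.105) and without the controls titled 1 (-0.24, 0.110). Tinf2 went the other way, from 50.7 to 70.5 CPM in controls and from 77.7 to 141 in dcKO, with no overlap (0.72, SE 0.11, adjusted p 1.8e-06). Gmpr2, which overlaps Tinf2, also rose in dcKO (1.49, SE 0.36, adjusted p 0.000683), and how far the 2 genes share reads was not tested. Pot1a (0.25, edgeR adjusted p 0.0654) and Acd (-0.03, 0.840) did not pass, although DESeq2 called Pot1a (0.28, 0.0298).

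The dcKO differences of Tinf2, Terf1 and Terf2 were also called against both single knockouts, of which those of Terf1 and Terf2 against Dis3 cKO were lost with ERCC scaling. Tinf2 was higher in dcKO than in Dis3 cKO (0.99, SE 0.11, edgeR adjusted p 8.8e-09) and than in Exosc10 cKO (0.88, 8.7e-08). Terf1 was lower (-0.57, adjusted p 2.2e-05, and -0.60, 1.1e-05), the first of these being -0.29 (0.190) with ERCC scaling. Terf2 was lower than in Exosc10 cKO (-0.46, adjusted p 9.1e-05). Against Dis3 cKO it stood at -0.22 (edgeR adjusted p 0.0453), a call lost under most alternatives, with a value of 0.02 (0.931) with ERCC scaling and -0.06 (0.696) without the Dis3 cKO libraries titled 2. Single knockouts compared with each other showed no called member, except that Terf2 was called higher in Exosc10 cKO without the Dis3 cKO libraries titled 2 (0.38, edgeR adjusted p 0.0434) or without the Exosc10 cKO libraries titled 1 (0.36, 0.0361).

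**Figure D4:**
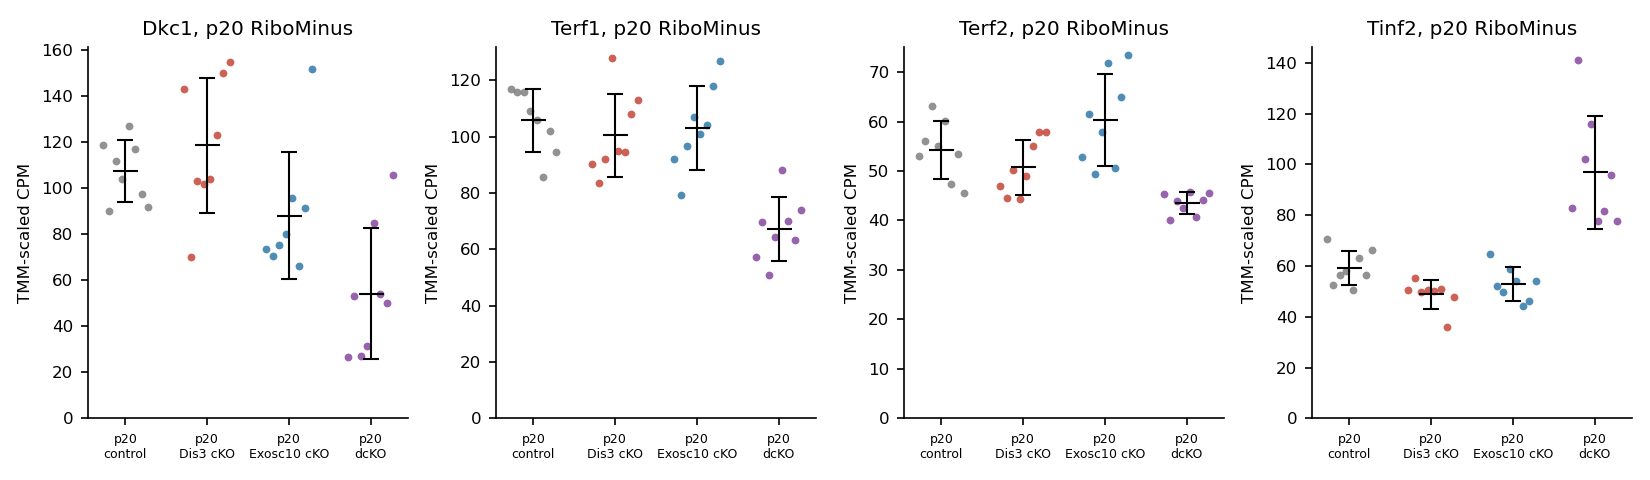
Levels of Dkc1, Terf1, Terf2 and Tinf2 in TMM-scaled CPM per p20 RiboMinus library (points) with group mean and SD (bars). The dcKO libraries reach down to 26.8 for Dkc1, where controls start at 90.2, and lie above all controls for Tinf2.

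Counts of members were read against all genes tested. Leaving out Terc, which entered the poly(A) fit through the knockout alone, 2 of 9 members were called at GV, both lower, where 21.9% of all genes were called. At GV3h 2 of 9 were called, both lower, against 38.6% of genes. At MII, of 9, 3 were lower and 1 higher, against 42.1% of genes. In dcKO at p20, of 9 members tested, 5 were lower and 1 higher (53.7% of genes), against Dis3 cKO 5 lower and 2 higher (51.5%), and against Exosc10 cKO 5 lower and 1 higher (49.2%). The share of members called lay below that of all genes at GV3h and above it in the 3 dcKO comparisons. With 9 members tested, no excess or deficit is read from these counts.

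Some comparisons called 0 members with edgeR. In p20 Dis3 cKO against control 7.37% of genes were called and 0 of 9 members (1 at an unadjusted p under 0.05, 0 by DESeq2). In Exosc10 cKO against control 7.45% were called and again 0 of 9 members (0 unadjusted, 0 by DESeq2). Exosc10 cKO against Dis3 cKO called 9.98% of genes and 0 members (2 unadjusted, 0 by DESeq2). Adult against p20 controls called 19.1% and 0 members (0 unadjusted, 0 by DESeq2). Tert is left out of this comparison, because its adult controls served the contrast that chose the genes. With ERCC scaling every other member tested was lower in adults (-1.52 to -2.77, edgeR adjusted p 5.0e-12 to 0.000307), where 14869 of 17267 genes were called. The median of all genes was itself -1.69 there. Relative to it Wrap53 stood at -1.08 and the rest from -0.16 (Pot1a) to 0.17 (Parn), so these p-values do not set the members apart from other genes. GV3h against GV in controls called 2.71% and 0 members (2 unadjusted, 0 by DESeq2). A fit of only the groups compared called more genes, 2083 of 13785. It called 3 members, Tert, Tinf2 (0.26, edgeR adjusted p 0.0200) and Acd (0.31, 0.0129). The change in the Dis3 effect from GV to GV3h called 2.04% and 0 members (2 unadjusted, 0 by DESeq2). A fit of only the groups compared called 841 of 16737 genes there, Pot1a included (-0.55, edgeR adjusted p 0.0332). The change from GV to MII called 13.2% of genes and 1 member, Acd (2 unadjusted and 2 by DESeq2, Terf2 and Acd). Of all genes, in the order given, 3207, 3303 and 3662 of 15882, 5465 of 17267, and 2737, 2498 and 4718 of 17389 had an unadjusted p under 0.05.

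Over maturation many genes were called, and no excess of members is read here either. From GV to MII in controls 4 of 9 members were higher and 4 lower, where 58.5% of genes were called, and in Dis3 cKO 3 were higher and 5 lower (63.3%), Terc left out of both. In controls Dkc1 (1.30), Terf2 (0.93), Tinf2 (0.64) and Pot1a (0.46) rose on the log2 scale, and Acd (-0.89), Terf1 (-0.58), Parn (-0.52) and Wrap53 fell. On ERCC scaling every one of these 8 had a negative value (-0.55 to -5.62), with the median of all genes at -2.12 instead of -0.27. Relative to that median Dkc1 stood at 1.57, Terf2 at 1.22, Tinf2 at 0.90 and Pot1a at 0.70, and Acd at -0.61. In Dis3 cKO the 3 higher members were also negative on ERCC scaling, where the median of all genes was -1.50. They were Dkc1 (-0.28, edgeR adjusted p 0.161), Terf2 (-0.74, 8.3e-05) and Tinf2 (-0.40, 0.0321).

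**Figure D5:**
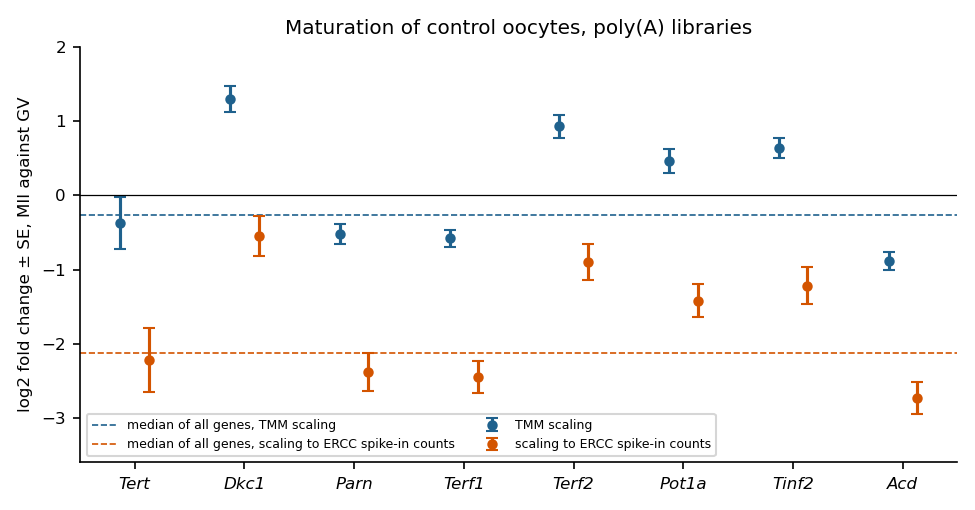
Log2 fold change with SE from GV to MII in control oocytes for 8 members, scaled by TMM and by ERCC counts, with dashed lines at the median of all genes (-0.27 and -2.12). Dkc1, Terf2, Tinf2 and Pot1a lie above both medians, and their sign turns negative with ERCC scaling.

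Genes of the wider pathway were taken from 3 lists. The first held 13 genes for partners and assembly factors of H/ACA RNAs or of telomerase. Of these, 1 rose and 1 fell in Dis3 cKO at GV, 3 and 1 at GV3h, 6 and 2 at MII, and 3 and 3 in p20 dcKO. The share of all genes called was 21.9, 38.6, 42.1 and 53.7%. Their median log2 difference at MII was 0.14, and that of all genes was 0.16. Nop10, a core H/ACA protein that sits beside dyskerin, rose at all 3 poly(A) stages (0.55, 0.43 and 1.12; edgeR adjusted p 0.00938, 0.0298 and 1.1e-07) and in dcKO (0.74, 0.00376). Gar1, another core protein, rose at MII (0.69, 0.00154), as did Ruvbl1, an assembly ATPase (0.95, 0.000618). Naf1, which assembles with the RNA before Gar1 does, rose at GV3h (0.78, SE 0.20, 0.00100). The called falls of this list were Ruvbl2, the partner ATPase of Ruvbl1, at GV (-0.38, edgeR adjusted p 0.0112), Pinx1 at GV3h (-0.28, 0.0401), Nvl at MII (-0.74, 0.000236) and Tep1 in dcKO (-0.51, 0.00198), among others at MII and in dcKO. In p20 Dis3 cKO 0 of these 13 were called by edgeR (7.37% of all genes), and in Exosc10 cKO 1 fell (7.45% of all genes), Tep1 (-0.64, adjusted p 0.00185).

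Among 27 genes for RNA tailing, trimming and decay, which include Dis3 and Exosc10 themselves, 3 rose and 3 fell at GV, 6 and 8 at GV3h, 7 and 9 at MII, 2 and 3 in p20 Dis3 cKO, 3 and 2 in Exosc10 cKO, and 7 and 11 in dcKO. The share of all genes called in these comparisons was 21.9, 38.6, 42.1, 7.37, 7.45 and 53.7%. Their median log2 difference was -0.05 at MII (all genes 0.16) and -0.07 in dcKO (all genes -0.01). Toe1, the gene of a deadenylase that also trims telomerase RNA, rose at GV3h (log2 2.0, SE 0.43, edgeR adjusted p 0.000133) and in dcKO (2.05, SE 0.28, 2.7e-07). Tgs1, which hypermethylates the cap of Terc, rose at GV3h (1.42, 0.00225) and in dcKO (1.87, 1.8e-09). Exosc9, a subunit of the exosome core, fell at GV (-1.20, edgeR adjusted p 7.1e-08), in p20 Dis3 cKO (-1.0, 0.000300) and in Exosc10 cKO (-0.60, 0.0379). Exosc2, another core subunit, rose at GV (0.88, 0.000253) and MII (0.77, 0.000547). Xrn1, the cytoplasmic 5′ exonuclease, fell at GV (-1.10, 3.2e-07) and MII (-1.56, 1.9e-12).

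Of 23 genes for other telomere proteins and the CST complex, 22 were tested. At GV 0 rose and 3 fell, at GV3h 4 and 7, at MII 3 and 8, in p20 Dis3 cKO 1 and 0, in Exosc10 cKO 0 and 1, and in dcKO 7 and 7, beside the same shares of all genes (21.9, 38.6, 42.1, 7.37, 7.45 and 53.7%). The median log2 difference was -0.11 at MII (all genes 0.16) and 0.00 in dcKO (all genes -0.01). Terf2ip, encoding the shelterin protein RAP1, rose at GV3h (log2 1.68, SE 0.53, edgeR adjusted p 0.00869) and in dcKO (2.48, SE 0.29, 1.4e-08). Pot1b, the second mouse POT1 gene, fell at MII (-1.25, SE 0.21, 1.3e-06) and in dcKO (-1.10, SE 0.30, 0.00211). Ctc1, the large subunit of CST, fell at MII (-1.23, SE 0.27, 0.000178). Atrx, a chromatin remodeller found at telomeres, fell at GV (-0.76, SE 0.18, 0.000830).

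Markers of other cells were examined beside these genotype differences. The summed level of 6 theca, stroma and endothelium markers, carried by Pecam1, differed between some genotypes: its median was 75.2 CPM in controls and 37.1 in Dis3 cKO at GV, 68.7 and 36.0 at GV3h, 105 and 81.0 at MII, and 71.1 in controls and 39.1 in dcKO at p20. It was 72.3 in p20 Dis3 cKO and 81.9 in Exosc10 cKO, and 79.8 and 62.3 in adult RiboMinus control and Dis3 cKO. The ranges were 61.2 to 94.6 and 12.7 to 63.7 at GV, and 87.2 to 133 and 19.7 to 108 at MII. They did not overlap at GV3h (56.3 to 84.7 and 30.6 to 47.5) or between p20 control and dcKO (51.9 to 75.9 and 26.6 to 44.0). In poly(A) libraries the median was 60 CPM for Pecam1, 0.207 for Pdgfra and 0 for the other 4 genes of the list. The 12 granulosa and cumulus markers had medians of 125 and 85.8 CPM at GV, 89.0 and 70.3 at GV3h, 115 and 73.1 at MII, and 139 and 157 in p20 control and dcKO. At MII these markers ranged from 104 to 213 CPM in controls and from 59.3 to 95.1 in Dis3 cKO, without overlap. At GV3h they overlapped (72.9 to 113 and 43.9 to 91.2). At GV they ranged from 99.1 to 205 and from 69.5 to 304 CPM, highest in Dis3 cKO replicates 1 (304) and 4 (226), where Tert stood at 18.5 and 5.04 CPM and Dkc1 at 82.5 and 108, below every control. The part of either list in the member differences was not tested.

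In CUT&Tag peak lists the starts of the members were mostly free of peaks. Within 500 bases of the Tert start a peak of RNA polymerase II (label pols2s5) was present in 1 of 3 adult control lists, 1 of 3 p20 control lists and 0 of 3 adult Dis3 cKO lists, and within 2000 bases in 1, 2 and 1. The share of all genes with such a peak was 2.12 to 3.97%, 6.89 to 8.08% and 3.29 to 10.0% in those lists, which held 19697 to 35843, 74287 to 82446 and 30311 to 122606 peaks. A peak of the repressive histone mark H3K27me3 lay at the Tert start in 1 of 3 adult control lists and in 0 of 3 lists of each other group, where 14.9 to 27.3% of all genes had one. Dkc1 had a polymerase peak in 1 and an H3K27me3 peak in 1 of 3 p20 control lists, and Acd a polymerase peak in 1 adult control list and 1 adult Dis3 cKO list. Within 500 bases Parn, Wrap53, Terf2, Pot1a and Tinf2 had 0 peaks. Within 2000 bases Parn had a polymerase peak in 1 adult Dis3 cKO list, Wrap53 in 1 adult control and 1 adult Dis3 cKO list, and Acd in 1 adult control, 2 p20 control and 2 adult Dis3 cKO lists, and Terc and Terf1 were not analysed here. With peaks of a member in 0 to 2 of 3 lists per group in either window, no difference between genotypes was resolved.

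Genes with patterns most like those of Tert and Terc were found by Pearson's r of log2(CPM + 1) over the 48 RiboMinus libraries among 17267 genes, as a description. The libraries include the contrast that chose Tert and share depth and group. For Tert they were Pacsin2 (r = 0.938), Gda (0.931) and Slc7a1 (0.931). For Terc, with counts in few libraries, they were Gm13496 (0.585), Mfsd13b (0.572) and Olfr1103-ps1 (0.540), values that rest on sparse counts.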

How the data were processed

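Counts per gene and per ERCC spike-in were deposited by the authors, 1 file per library, as whole numbers without normalization. Per the submitters' processing notes the tools included cutadapt 2.5, STAR 2.7.2a, SAMtools 1.9 and HTSeq 0.9.1 with the build mm10; the annotation release and use of strand are not given in the sources used here. Peak lists with a total signal per peak were deposited by the authors per library; per the submitters' processing notes SEACR was among the tools, and per the series' design text reads were first sampled to an equal number. The signal served only to rank peaks within a list.

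Here edgeR 4.0.16 (R 4.3.3) was run on the counts after TMM scaling, with genes filtered by filterByExpr and its quasi-likelihood test, 2-sided, at a threshold of 0.05 after Benjamini-Hochberg adjustment over all genes tested. The 6 poly(A) groups shared 1 fit (17389 genes), the adult RiboMinus pair another (15334) and the 4 p20 groups a further one (15882). The standard error (SE) of a log2 fold change was derived from its F statistic, as the size of the change over the root of F. CPM of the RiboMinus libraries come from a fit of all 6 groups, which also compared the ages. Terc in RiboMinus libraries did not pass the filter and was tested with exact permutation of log2(CPM + 1).

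The members and all lists were chosen with earlier results of these data known. Named genes are all 10 members, the targeted genes, Trp53, the called list genes with the largest fold changes (at most 4 per list and comparison, of which the text gives a part) and the 3 genes most like Tert and Terc. Alternatives were ERCC scaling, DESeq2 1.42.0 (also its size factors), no filter, only the groups compared, a replicate block, counts summed per title tag and leaving out libraries or tags. The procedure was first tested on simulated data. No 2 libraries held identical counts (0 pairs). Libraries carry no molecular identifiers, so intervals and floors cover counting error only. The labels do not tie replicate numbers to animals, and in no comparison did every same-numbered pair of libraries correlate over 0.1, so the numbers were not taken to pair oocytes. Among the samples given, no library of the GV Dis3 cKO group carries the title number 9. The IgG samples were not analysed here. Levels were compared within a gene only, because transcript lengths were not used. The fit without GV Dis3 cKO replicate 8 was chosen after seeing the data.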

Additional observations from a re-analysis of the deposited data

Results flagged for a closer look

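Among 87 sets of 8 libraries and a member, 8 held a library that stood apart from the others, where chance gives about 1 in 20 sets. Of these, 4 concern Terc: the single count of poly(A) GV control replicate 7 (0.110 CPM, the others at 0), adult RiboMinus control AM1758_2 (0.314 CPM, others 0 to 0.0724), p20 control 2_2 (0.167, others 0 to 0.0589) and p20 dcKO 2_4 (0.797, others 0 to 0.0648). Wrap53 was counted in 1 of 8 MII control eggs, replicate 4, at 1.03 CPM. Dkc1 stood at 152 CPM in p20 Exosc10 cKO library 2_4, with the others from 66.2 to 95.9. Tinf2 was low in adult RiboMinus control AM1758_3 (40.3 CPM, others 53.3 to 64.8) and in p20 Dis3 cKO library 2_3 (35.9, others 47.6 to 55.1).

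The Dis3 effect on Acd differed between MII and GV by 0.50 on the log2 scale (SE 0.14, edgeR interaction test, adjusted p 0.0122), negative at GV and positive at MII.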

How the results depend on the processing

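Over 28 alternatives, 1289 values of the members stayed on the same side of the threshold, or if untested within the spread between libraries, in 1192 cases. Of these 1192, 44 tested values changed sign with no call in either fit. The call was lost in 37 cases, gained in 32 and turned in sign in 15, and 13 untested values moved by more than that spread. The lower Tert and Dkc1 of Dis3 cKO oocytes kept their call at all 3 poly(A) stages in each alternative that tested them. These totals also count the values of Terc, which the filter let in through the knockout libraries. Apart from the totals, no call of the poly(A) fits is read for Terc. In a fit of only the groups compared, Terc did not pass the filter at GV or MII.

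All 15 turns came with ERCC scaling, which moves the median of all genes by -1.85 from GV to MII in controls, -1.24 in Dis3 cKO, -1.69 between ages, -0.27 for Dis3 at GV, 0.36 at MII and -0.55 in adult RiboMinus libraries. From GV to MII the values became -0.55 (Dkc1), -0.90 (Terf2), -1.42 (Pot1a) and -1.22 (Tinf2) in controls, and -0.28, -0.74, -1.03 and -0.40 in Dis3 cKO. Adult against p20 controls became -1.65 (Tert), -1.52 (Parn), -1.53 (Terf1), -1.53 (Terf2) and -1.60 (Acd). The Tert value is counted among the 15 but is a description only, because those adult controls served the contrast that chose the gene. Terf1 in Dis3 cKO at MII became 0.07, and Terf2 in dcKO against Dis3 cKO 0.02. The share of calls that were higher went from 62.0% to 35.3% for Dis3 at GV, 64.8% to 89.7% at MII, 55.9% to 10.2% in adult RiboMinus, 49.0% to 12.8% at p20, 50.5% to 73.1% for dcKO against Dis3 cKO, 50.2% to 87.1% for Exosc10 cKO against Dis3 cKO, 38.8% to 0.380% and 39.2% to 1.56% from GV to MII in controls and Dis3 cKO, 42.3% to 55.9% from GV to GV3h, 67.3% to 90.0% and 70.5% to 97.7% for the changes in the Dis3 effect at GV3h and MII, and 45.6% to 0.484% between ages. In adult RiboMinus libraries ERCC scaling gave -2.47 for Tert and -1.14 for Dkc1.

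Counts of called genes moved by over 1.5 times as follows. With ERCC scaling they were 15275 (10179 as reported) from GV to MII in controls, 118 (471) from GV to GV3h, 5237 (2287) for the change in the Dis3 effect at MII, 6843 (4305) in adult RiboMinus, 364 (1183) in Exosc10 cKO, 5015 (7809) in dcKO against Exosc10 cKO and 14869 (3294) between ages. With only the groups compared they were 4336 (7315) for Dis3 at MII, 2083 (471) from GV to GV3h, and 841 (355) and 1408 (2287) for the changes in the Dis3 effect at GV3h and MII. DESeq2 gave 545 (355) for the change at GV3h. With counts summed per title tag the adult RiboMinus contrast had 0 calls (3577 at an unadjusted p under 0.05), p20 Dis3 cKO 286 (1171), Exosc10 cKO 174 (1183) and Exosc10 cKO against Dis3 cKO 416 (1585); fewer samples enter that fit. Leaving out libraries or title tags gave 2338 to 6245 in adult RiboMinus, 489 to 778 in p20 Dis3 cKO, 381 to 1034 in Exosc10 cKO, 915 to 1279 in Exosc10 cKO against Dis3 cKO and 476 to 558 for the change in the Dis3 effect at GV3h. Peaks within 2000 bases of a start numbered 15 over all lists, and 7 within 500. The cause of the other changes was not tested.

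With the replicate number as a block, which the labels do not tie to animals, calls numbered 3812 (3821 without the block, title numbers 1 to 8) at GV, 6329 (6317) at GV3h and 5816 (5971) at MII, and at p20 1143 for Dis3 cKO, 1106 for Exosc10 cKO, 8412 for dcKO, 8100 and 7757 for dcKO against each, and 1582 between the single knockouts. Of 8 same-numbered pairs, 4, 1 and 0 correlated over 0.1 at GV, GV3h and MII, and 0 to 4 in the p20 comparisons (r from -0.472 to 0.602). Depth limits Terc in RiboMinus libraries: the floor of 3 counts over 8 p20 Dis3 cKO libraries is 0.0306 CPM.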
